A study of Mus musculus with 12 samples.

Results

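The dexamethasone response of fetal mouse oocytes was described across all genes, using the 6 germ cell libraries of a series of 12. These were 3 libraries of dexamethasone (dex) treated and 3 of saline treated OCT4-GFP positive germ cells sorted from the E15.5 ovary, and no somatic library entered a test. Of 54532 genes in the count table, 16857 passed the low-count filter and were tested. The embryos of both groups carried the Tg(Pou5f1-EGFP)2Mnn reporter, in which Pou5f1 (Oct4) regulatory sequence drives a green fluorescent protein in germ cells. Pregnant dams were injected intraperitoneally once a day from E12.5 to E15.5, 4 times in all, with dex at 10 µg per gram body weight in the treated group and the same volume of saline in the controls. Ovaries were collected at E15.5, and the material behind each library was pooled over litters, so a library is a pool and not an animal. The dose was given to the dam, and the embryos' own exposure was not measured in these data.

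The glucocorticoid receptor (GR, gene Nr3c1) is a nuclear receptor that waits in the cytoplasm in a complex with heat shock proteins. Once it binds a steroid such as dex, it enters the nucleus, binds DNA at pairs of half-sites arranged as inverted repeats, and raises or lowers the transcription of nearby genes. In most tissues its best known targets include the clock gene Per1, the receptor's own chaperone Fkbp5, the leucine zipper gene Tsc22d3, and Nfkbia, whose product holds the inflammatory factor NF-κB inactive. At E15.5 the germ cells of the ovary are oocytes in meiotic prophase.

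Germ cell libraries held 14658503 to 17616664 counts and 25453 to 26454 detected genes. Levels are given as CPM, the counts of a gene scaled to a common library total, and 3 counts, taken as the floor of detection, corresponded to 0.171 to 0.202 CPM. All 10 germ cell markers on the list passed the filter, including the RNA helicase gene Ddx4 at 551 to 617 CPM and the synaptonemal complex gene Sycp1 at 2153 to 2690 CPM. Their summed level was 5655 to 5855 CPM after dex and 6093 to 6732 CPM after saline, and these ranges did not overlap. Sycp1 was the largest single part of this sum. Taken singly, 4 of the 10 markers did not overlap, all lower after dex, against 8.83% of all genes, and edgeR called 0 of the 10. Markers of other cells were low but present. The 13 pregranulosa markers summed to 52.8, 174 and 131 CPM in dex libraries 1, 2 and 3 and to 63.2, 95.2 and 119 CPM in the saline libraries, so dex library 2 held the most and dex library 1 the least. The 12 stromal markers summed to 147 to 269 CPM after dex and 130 to 210 CPM after saline, again highest in dex library 2. Endothelial, macrophage, perivascular and epithelial sums overlapped between the groups, and the erythroid sum was 10.2 to 49.5 CPM after dex and 33 to 41.1 CPM after saline. No marker of any of these lists was without counts in all 6 libraries. Dex library 1 stood apart on the second principal component, which carried 22.4% of the variance. The first component carried 28.8%, with dex libraries 2 and 3 at one end and saline library 1 at the other. Some values that rest on dex libraries 1 or 2 are therefore also given without them. Others, such as those of Cpa3, Ldha and H19, are not. In sorted bulk RNA, fewer cells of a type and less RNA per cell cannot be told apart.

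**Figure D1:**
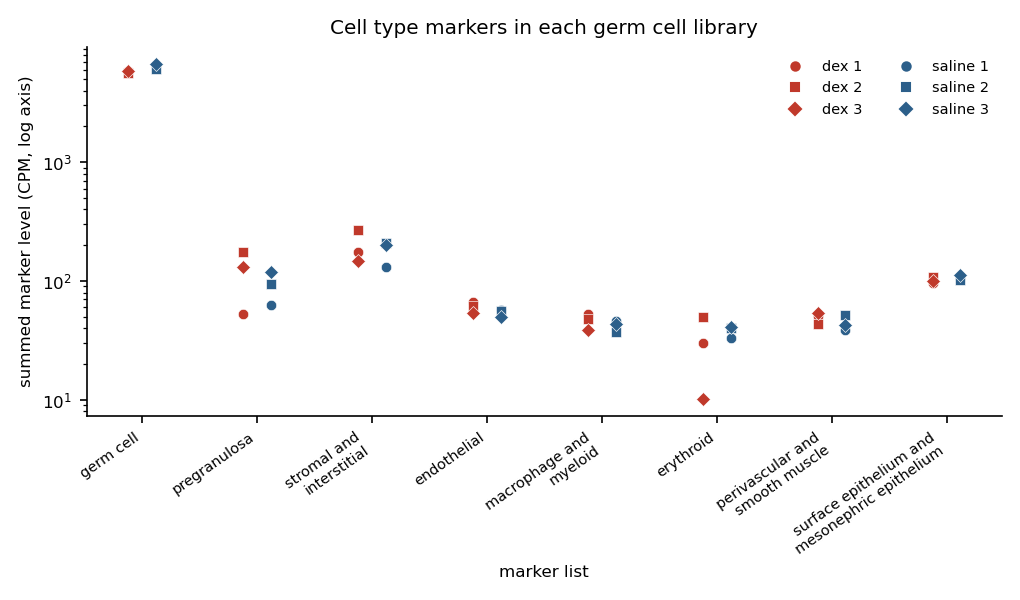
Summed level of each cell type marker list (CPM, log axis) in the 3 dex (red) and 3 saline (blue) germ cell libraries, 1 point per library. Germ cell markers summed to 5655 to 6732 CPM, and the pregranulosa sum reached 174 CPM in dex library 2.

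At an adjusted p of at most 0.05 (edgeR quasi-likelihood test, Benjamini-Hochberg over the 16857 genes), 35 genes or 0.208% were called. Of these, 15 (0.089%) were higher and 20 (0.119%) were lower after dex. The number depended on the method, with 158 called by DESeq2 (72 higher, 86 lower) and 420 by edgeR without the low-count filter (248 higher, 172 lower). An unadjusted p under 0.05 was found for 1963 genes (11.6%), 963 higher (5.71%) and 1000 lower (5.93%). Without regard to a test, all 3 dex libraries lay above or below all 3 saline libraries for 17.2% of genes, above for 8.38% and below for 8.83%, and 53% of genes had a log2 fold change above 0. The median log2 fold change of all tested genes was 0.01. Among the 35, 12 changed by at least 2-fold, of which 10 rose and only H2-K1 and Angpt1 fell. All 35 had non-overlapping libraries. When each library was left out in turn, 15 of the 35 kept their call in all 6 fits. The total fell to 17 without dex replicate 2 or without saline replicate 3, and it rose to 81 without dex replicate 1.

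**Figure D2:**
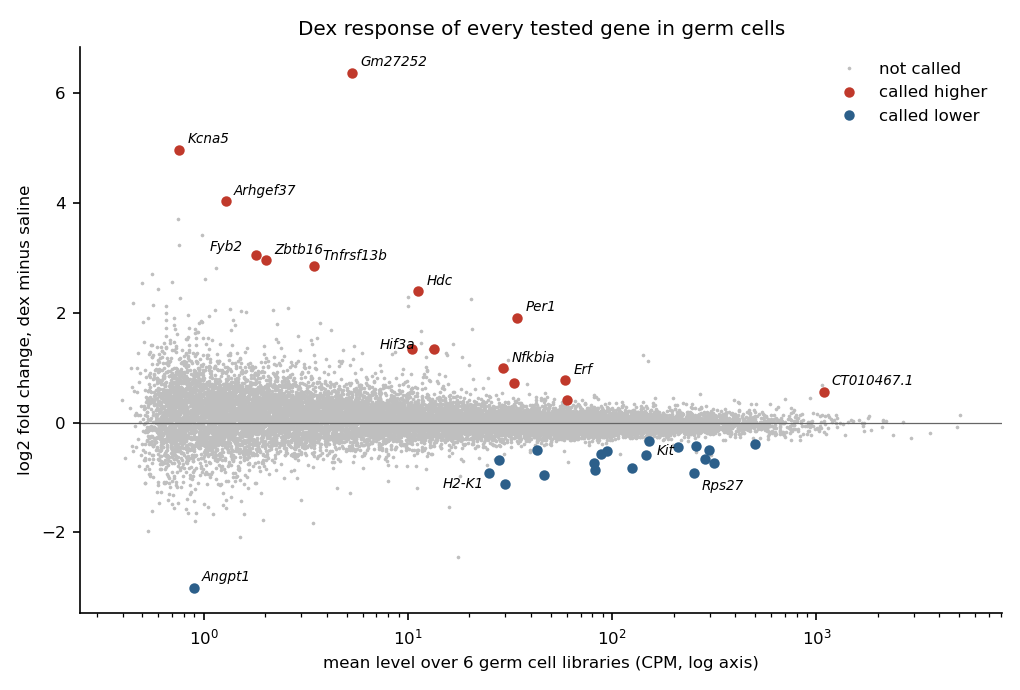
Log2 fold change (dex minus saline) of each of the 16857 tested genes against its mean level (CPM, log axis), with the 15 genes called higher in red and the 20 called lower in blue. The large rises belong mostly to genes of low level, and the falls, apart from Angpt1, to genes of moderate or high level.

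The receptor itself did not pass the test. Nr3c1 (chromosome 18, 39410545 to 39491301, GRCm38) stood at 155, 164 and 152 CPM in the dex libraries and 166, 159 and 153 CPM in the saline libraries. Its log2 fold change was -0.02 (SE 0.06, edgeR adjusted p = 0.941), and the 2 groups overlapped. Of 20 tested genes for the receptor, its chaperones, cofactors and the enzymes that convert cortisol, 0 were called by edgeR. An unadjusted p under 0.05 was found for 4, against 11.6% of all genes. The median log2 fold change of this list was -0.02. The cytosolic chaperones Hsp90aa1, Hspa8 and Hsp90ab1 were lower in every dex library, with log2 fold changes of -0.19, -0.16 and -0.16, and none was called (edgeR adjusted p = 0.271, 0.34 and 0.377).

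Among GR target genes, 29 of 33 were tested. Of these, 4 were called, all higher (Per1, Nfkbia, Hif3a and Zbtb16), against 0.089% of all genes. At an unadjusted p under 0.05, 9 were higher and 1 lower, against 5.71% and 5.93% of all genes. All 3 dex libraries lay above saline for 11, against 8.38% of all genes, and below for 0, against 8.83%. A log2 fold change above 0 was found for 25, against 53% of all genes. The median was 0.28, and it was 0.45 without dex replicate 1 and 0.18 without dex replicate 2. It was 0.26 with the somatic marker level of each library as a covariate. The list was chosen with results of these data known.

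Per1, a repressor within the circadian clock and a direct GR target in many tissues, had the smallest p of all genes. It lies on chromosome 11 (69095217 to 69109960) and stood at 64.4, 58.1 and 39.8 CPM in the dex libraries and 15.8, 13.2 and 14.2 CPM in the saline libraries. The lowest dex library was thus above every saline library by more than the whole range of the saline group. The log2 fold change was 1.91 (SE 0.16, edgeR adjusted p = 0.000906), and the call held with any library left out. Somatic means of Per1 were 261 CPM after dex and 83.5 CPM after saline, and the part of somatic RNA in its rise was not tested. Of 24 clock genes tested, Per1 was the only one called, and the list's median was 0.04. Ciart, a repressor in the same loop, was at 14.6, 9.55 and 11 CPM after dex and 6.81, 7.09 and 7.72 CPM after saline (log2 fold change 0.70, SE 0.19, edgeR adjusted p = 0.213). Clock, which encodes an activator of Per1, was at 227 to 262 CPM and 245 to 285 CPM (log2 fold change -0.12, edgeR adjusted p = 0.577).

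Nfkbia encodes the inhibitor IκBα and lies on chromosome 12 (55489410 to 55492647, minus strand). Its levels were 39.3, 40.2 and 37.2 CPM after dex and 18.7, 19 and 21.2 CPM after saline. The spread within each group was far smaller than the gap between them, with a log2 fold change of 0.99 (SE 0.10, edgeR adjusted p = 0.00133). A neighbouring non-coding transcript rose with it. Gm36634 starts 5074 bases from the Nfkbia start on the opposite strand (chromosome 12, 55497721 to 55499951). It was at 19.8, 13.7 and 11.4 CPM after dex and 6.35, 5.68 and 5.6 CPM after saline (log2 fold change 1.35, SE 0.21, edgeR adjusted p = 0.0233). Leaving out dex library 2 gave an edgeR adjusted p of 0.0726, and leaving out saline libraries 2 or 3 gave 0.0788 and 0.144, so these omissions ended the call. Around the 35 called genes 60 tested genes had a start site within 50000 bases, and the only 2 that were called were Nfkbia and Gm36634, each beside the other. Whether the transcript shares reads with Nfkbia was not tested, but their annotated spans do not overlap.

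Hif3a, a hypoxia-inducible factor subunit that is induced by glucocorticoids in several tissues, lies on chromosome 7 (17031507 to 17062427) and overlaps the transcript 4833404L02Rik. It was at 16.7, 22.5 and 18.5 CPM after dex and 7.72, 7.44 and 7.54 CPM after saline, without overlap (log2 fold change 1.35, SE 0.15, edgeR adjusted p = 0.00279). Other genes of the hypoxia pathway were not called. Of 17 tested, Hif3a was the only call, the median was 0.02, and 9 of the 17 were above 0. Somatic libraries held far more Hif3a, with means of 484 CPM after dex and 181 CPM after saline. The call held with the somatic marker level as a covariate, but that level does not follow a transcript that itself rises in somatic cells. The part of somatic RNA in the germ cell rise was not tested.

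Zbtb16, a zinc finger repressor that is strongly induced by dex in many cells, was at 1.96, 4.45 and 4.39 CPM after dex and 0.195, 0.703 and 0.457 CPM after saline. The dex libraries did not overlap with saline, but the lowest of them was dex library 1, which also held the least pregranulosa marker RNA. The log2 fold change was 2.96 (SE 0.46, edgeR adjusted p = 0.0249), and the call was lost without dex replicates 2 or 3 or without saline replicate 3 (edgeR adjusted p = 0.145, 0.112 and 0.144). Somatic means were 68.6 CPM after dex and 0.565 CPM after saline. The part of somatic RNA in this rise was not tested.

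Other target genes missed the threshold. Ddit4, an inhibitor of the growth kinase mTORC1, lay just outside it. Its levels were 22, 28.3 and 28.4 CPM after dex and 13.6, 17.2 and 14.7 CPM after saline (log2 fold change 0.79, SE 0.14, edgeR adjusted p = 0.0503). It was named after its values were seen. Fkbp5, the chaperone that feeds back on the receptor, was at 95.1, 107 and 105 CPM after dex and 72.2, 85.3 and 86.5 CPM after saline (log2 fold change 0.33, edgeR adjusted p = 0.162). Cdkn1a, the cell cycle inhibitor p21, was at 5.73, 4.45 and 3.05 CPM against 2.46, 1.93 and 2.11 CPM (log2 fold change 1.02, edgeR adjusted p = 0.218). The dex libraries of all 3 genes lay above saline, yet none was called. Tsc22d3, in contrast, was abundant and even between groups, at 382, 360 and 403 CPM after dex and 368, 412 and 395 CPM after saline (log2 fold change -0.04, SE 0.07, edgeR adjusted p = 0.866). Klf9, a zinc finger target of the receptor, was at 4.52 to 5.03 CPM and 3.18 to 4.52 CPM (log2 fold change 0.23, edgeR adjusted p = 0.72).

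**Figure D3:**
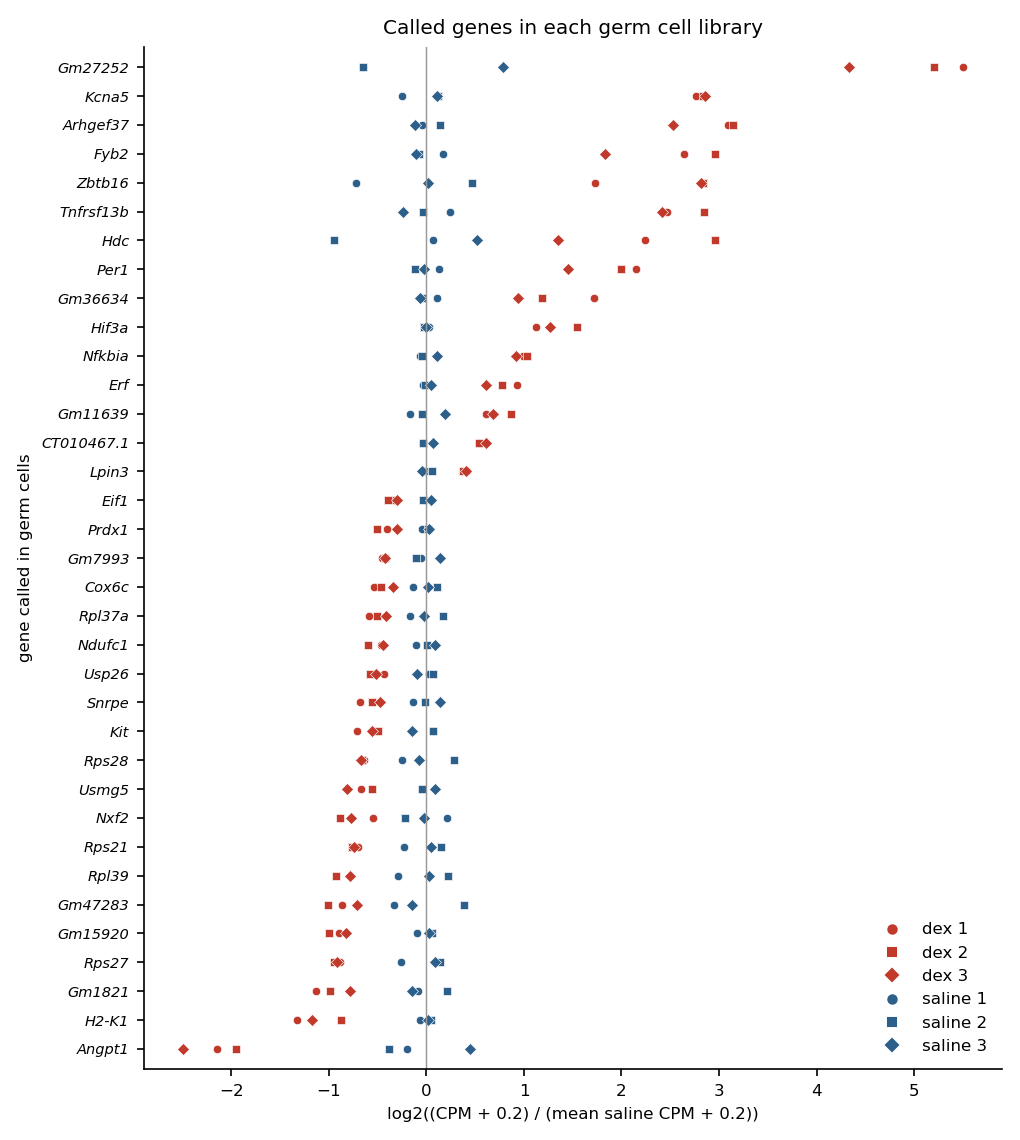
Level of each of the 35 called genes in each germ cell library, as log2 of CPM + 0.2 over the mean saline CPM + 0.2, with dex in red, saline in blue and 1 symbol per replicate number. No dex library overlapped with a saline library for any called gene, and dex library 3 was the lowest of the dex libraries for Per1, Hdc and Gm27252.

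The other 11 genes called higher are not on the target list. Several of them were nearly silent in saline germ cells. Tnfrsf13b, which encodes TACI, a receptor for B cell survival ligands, was at 5.6, 7.32 and 5.39 CPM after dex and 1.04, 0.82 and 0.686 CPM after saline (chromosome 11, 61126755 to 61149372). Its log2 fold change was 2.84 (SE 0.28, edgeR adjusted p = 0.00133), and the call held with any library left out. It overlaps Gm12269 on the opposite strand, and reads of the pair cannot be told apart. Somatic libraries held less of it than dex germ cells, with means of 0.808 CPM after dex and 1.98 CPM after saline. Arhgef37, a guanine nucleotide exchange factor family gene, was at 2.7, 2.81 and 1.76 CPM after dex and at or below 3 counts in each saline library. Summed over libraries it had 113 counts after dex and 7 after saline, a depth-scaled ratio of 17.1 (95% exact interval 8.03 to 43.5, counting error only; edgeR adjusted p = 0.00306). Its somatic means were 0.425 CPM after dex and 0.169 CPM after saline.

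Kcna5, a voltage-gated potassium channel gene, had 70 counts after dex and 2 after saline, a ratio of 37.1 (95% exact interval 9.89 to 312; edgeR adjusted p = 0.0076). The 3 dex libraries were close to each other at 1.42, 1.5 and 1.52 CPM, while the somatic means were 19.3 and 16.3 CPM. The call was lost without saline replicate 3 (edgeR adjusted p = 0.054). Gm27252, a non-coding transcript annotated within Klf13 on the opposite strand, was at 14, 11.4 and 6.15 CPM after dex. It had 0 counts in 2 saline libraries and 6 counts in saline replicate 3, so the ratio of summed counts was 86 (95% exact interval 39.2 to 235; edgeR adjusted p = 0.00133). Klf13 itself, a Krüppel-like zinc finger gene, was at 51.5, 57.4 and 51.4 CPM after dex and 42.9, 38.3 and 39.3 CPM after saline (log2 fold change 0.41, SE 0.08, edgeR adjusted p = 0.0844), and was not called. The counting strand was not given in the sources used here, so reads of this pair, like those of other called genes with an opposite-strand overlap (Hif3a, Cox6c, Rps28, Usmg5 and Angpt1 among them), cannot be told apart.

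Fyb2, which encodes an adaptor of T cell signalling and overlaps Gm12721 on the opposite strand, was at 3.44, 4.32 and 1.87 CPM after dex and 0.454, 0.351 and 0.343 CPM after saline (log2 fold change 3.05, edgeR adjusted p = 0.0107). It lost its call without dex replicate 2 or saline replicates 2 or 3 (edgeR adjusted p = 0.0807, 0.0573 and 0.0828). Erf, a repressor of the ETS family that acts downstream of growth factor signalling, had the highest mean CPM after dex of the coding genes called higher. Its levels were 82.7, 74.3 and 66.6 CPM after dex and 42.3, 43.2 and 44.9 CPM after saline (chromosome 7, 25242561 to 25250761). The log2 fold change was 0.78 (SE 0.09, edgeR adjusted p = 0.00243), the call held with any library left out, and somatic means were 115 and 116 CPM. Lpin3, a phosphatidate phosphatase gene that overlaps the opposite-strand Gm16751, rose least, from 50.2 to 54.1 CPM to 67.6 to 69.5 CPM (log2 fold change 0.40, edgeR adjusted p = 0.0435), and each of the 6 omissions removed its call (adjusted p 0.0725 to 0.245). Gm11639, a predicted gene that overlaps several others, had a log2 fold change of 0.73 (edgeR adjusted p = 0.0233). Its call was lost in 4 omissions, without dex replicates 2 or 3 or saline replicates 1 or 2, and the adjusted p then reached 0.167. It was also lost with a transcript length trend removed (edgeR adjusted p = 0.0606). CT010467.1, annotated as an 18S ribosomal RNA related sequence, was at 1268, 1270 and 1339 CPM after dex and 852, 853 and 921 CPM after saline (log2 fold change 0.56, edgeR adjusted p = 0.00235). It is a repeat within annotated overlaps in poly-A selected RNA, and its value is uncertain.

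Hdc, the enzyme that makes histamine, was at 17.7, 29.2 and 9.43 CPM after dex and 3.76, 1.76 and 5.2 CPM after saline. The log2 fold change was 2.39 (SE 0.41, edgeR adjusted p = 0.0435), and 4 of 6 omissions removed the call (adjusted p 0.17 without dex replicate 2, and 0.0788, 0.0929 and 0.0828 without saline replicates 1, 2 and 3). Cpa3, a protease of mast cells, had the same order of libraries within each group, at 14.4, 28 and 8.61 CPM and 8.56, 2.75 and 10.9 CPM, and was not called (log2 fold change 1.19, edgeR adjusted p = 0.339). Tpsb2, a mast cell tryptase named with Tap1 and Klf13 after values were seen, was at 3.24, 9.48 and 2.17 CPM and 4.67, 2.64 and 5.03 CPM. The high-affinity IgE receptor genes Fcer1a and Ms4a2 were at or below 3 counts in every library. Hdc and Cpa3 were higher in the somatic libraries, at means of 97.7 and 106 CPM after dex and 22.2 and 26.4 CPM after saline. The part of mast cell RNA in the Hdc rise was not tested.

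Sequence at RefSeq start sites of the genes called higher was examined for the letters of a GR element. In RefSeq windows of 300 bases (250 before and 50 after a start site, GRCm38.p6), ACANNNTGT, which reads the same on both strands, occurred in 6.85% of 32851 promoters. It was present in 3 of 15 windows (20%) of the genes called higher (Hdc, Fyb2 and Kcna5) and in 0 of 17 of those called lower. By gene, this was 3 of the 12 called higher that had a window and 0 of 13 called lower, against 2135 of 27025 in all. The E-box CACGTG, bound by CLOCK and its partner, occurred in 7.15% of all windows, and in those of Per1 and Lpin3 among the genes called higher and of Nxf2 among those called lower. The Lpin3 match was not before the start site, and 1 Nxf2 window, not shown, held 5 matches before it. The cAMP response element TGACGTCA occurred in 1.79% of all windows and in 0 of either set. The windows of genes called higher that held a match before the start site are shown, since these are the genes that rose, with the matching letters in capitals and annotated exon sequence left out. They are written 5′ to 3′ on the strand of the gene.
Hdc, chr2:126618679-126618928, minus strand: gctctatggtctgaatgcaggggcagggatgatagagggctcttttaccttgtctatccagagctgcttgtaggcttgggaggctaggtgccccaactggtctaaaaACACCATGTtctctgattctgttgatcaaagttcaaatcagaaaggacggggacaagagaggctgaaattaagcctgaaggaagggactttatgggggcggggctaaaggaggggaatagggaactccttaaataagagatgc
Fyb2, chr4:104913311-104913455, plus strand: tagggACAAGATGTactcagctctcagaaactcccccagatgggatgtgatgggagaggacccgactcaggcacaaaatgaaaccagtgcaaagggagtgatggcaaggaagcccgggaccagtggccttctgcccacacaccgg
Kcna5, chr6:126535556-126535805, minus strand: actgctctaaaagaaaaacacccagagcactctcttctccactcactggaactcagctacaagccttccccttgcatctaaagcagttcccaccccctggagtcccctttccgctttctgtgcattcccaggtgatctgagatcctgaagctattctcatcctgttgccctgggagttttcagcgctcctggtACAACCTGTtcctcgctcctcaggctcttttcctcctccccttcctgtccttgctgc
Per1, chr11:69098699-69098947, plus strand: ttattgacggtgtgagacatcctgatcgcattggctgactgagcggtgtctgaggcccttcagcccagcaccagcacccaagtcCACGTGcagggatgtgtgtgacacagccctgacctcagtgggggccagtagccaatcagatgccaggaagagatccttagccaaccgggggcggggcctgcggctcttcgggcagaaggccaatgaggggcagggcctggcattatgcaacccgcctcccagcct
The capitals mark ACANNNTGT in the first 3 and CACGTG in Per1. The matches began 143, 245, 57 and 166 bases before the RefSeq start site. The Hdc and Per1 windows lay within the annotated spans of these genes and not upstream of them. Kcna5 and Fyb2 are among the genes nearly silent in saline, and Per1 and Nfkbia held no ACANNNTGT in their windows. A match is a description of letters and not of binding.

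Genes called lower made up a different set. Kit, the receptor tyrosine kinase through which somatic KIT ligand acts on oocytes, was at 107, 125 and 120 CPM after dex and 184, 184 and 158 CPM after saline (chromosome 5, 75574916 to 75656722). The gap between the highest dex and the lowest saline library was larger than the range of either group, and the log2 fold change was -0.58 (SE 0.08, edgeR adjusted p = 0.00959). The call held with any library left out. Kit was the only call among 18 tested pluripotency and primordial germ cell genes, whose median was 0.11 (0.018 without dex replicate 3 and 0.17 without saline replicate 3). Lin28a, an RNA-binding protein of early germ cells, was at 10.1, 9.42 and 9.61 CPM after dex and 3.57, 6.8 and 6.23 CPM after saline (log2 fold change 0.81, edgeR adjusted p = 0.222). Pou5f1, the gene whose regulatory sequence drives the reporter, was at 18.9 to 23.7 CPM and 14.2 to 25.8 CPM (log2 fold change 0.12, edgeR adjusted p = 0.85), and the groups overlapped.

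H2-K1, a class I histocompatibility heavy chain, stood at 16.3, 22.4 and 18 CPM after dex and 39.2, 42.5 and 41.4 CPM after saline. The highest dex library was far below the lowest saline library, the log2 fold change was -1.12 (SE 0.12, edgeR adjusted p = 0.002), and the call held with any library left out. The gene has close paralogs, so its counts are uncertain. Of 18 tested genes of class I presentation it was the only call, with a list median near 0 (-0.00). The peptide transporter gene Tap1 was at 1.01, 0.915 and 0.644 CPM after dex and 2.08, 1.52 and 2.11 CPM after saline (log2 fold change -1.15, edgeR adjusted p = 0.275), while the peptide editor Tapbp was at 8.82 to 10.5 CPM after saline and higher in each dex library, up to 14.6 CPM (log2 fold change 0.48, edgeR adjusted p = 0.274). Of 35 interferon-inducible genes only 11 were expressed enough to be tested, and edgeR called 0 of them. An unadjusted p under 0.05 was found for 1, against 11.6% of all genes. Angpt1, a ligand of the endothelial receptor TIE2, had 9 counts after dex and 80 after saline, a ratio of 8.39 in favour of saline (95% exact interval 4.21 to 19; edgeR adjusted p = 0.0489). Each of the 6 omissions removed this call (adjusted p 0.0697 to 0.264), and somatic means were 9.72 and 19.3 CPM.

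Usp26 and Nxf2, germ cell genes of the X chromosome, encode a ubiquitin protease and an RNA export factor. Usp26 was at 82, 74.3 and 77.8 CPM after dex and 113, 116 and 104 CPM after saline (log2 fold change -0.51, SE 0.07, edgeR adjusted p = 0.00834, and 0.0807 without dex replicate 2). Nxf2 was at 69.4, 54.8 and 59.2 CPM and 117, 86.8 and 99.8 CPM (log2 fold change -0.73, SE 0.11, edgeR adjusted p = 0.0233). Nxf2 lost its call without dex replicates 2 or 3 or saline replicate 3 (edgeR adjusted p = 0.141, 0.102 and 0.111). Somatic levels of both were under 2 CPM.

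The largest group of called falls consisted of short genes of the ribosome and the respiratory chain. Of the 17 protein-coding genes called lower, 9 had a coding sequence under 300 nt, against 0 of the 12 called higher and 222 of all 13836 tested coding genes with a known length. They were 5 ribosomal protein genes (Rps27, Rps21, Rps28, Rpl39 and Rpl37a), Cox6c and Ndufc1 of respiratory complexes IV and I, Usmg5 of the ATP synthase, and Snrpe, a core protein of spliceosomal particles. Rps27, a small subunit protein with a coding sequence of 252 nt, was at 177, 169 and 173 CPM after dex and 273, 360 and 348 CPM after saline (log2 fold change -0.92, SE 0.09, edgeR adjusted p = 0.00133). Rps21, of 249 nt, was at 242, 232 and 235 CPM and 336, 438 and 407 CPM (log2 fold change -0.74, SE 0.09, edgeR adjusted p = 0.00306). Rpl39, the shortest of the 5 at 153 nt, was at 92.3, 83.9 and 92.4 CPM and 130, 185 and 162 CPM (log2 fold change -0.83, edgeR adjusted p = 0.00636). In all 3 the dex libraries were nearly equal and the saline libraries varied, with saline library 1 the lowest, and these 3 calls held with any library left out. Rps28 and Rpl37a fell by 0.66 and 0.50 on the log2 scale (edgeR adjusted p = 0.0382 and 0.0435). Rps28 lost its call in 3 omissions and Rpl37a in 5, in both cases including dex replicate 2 and saline replicate 3, with adjusted p up to 0.172 and 0.199.

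Across the ribosomal protein genes the median change differed by coding length, although single longer genes varied widely. All 82 were tested, and 5 were called lower and 0 higher. At an unadjusted p under 0.05, 26 were lower and 4 higher, against 5.93% and 5.71% of all genes. The median was -0.08 (-0.036 to -0.14 with single libraries left out, the first without saline replicate 3 and the second without saline replicate 1). Classes of coding length were set after these values were seen. Of the 9 genes under 300 nt, 7 did not overlap and were lower, against 8.83% of all genes. The share was 19.8% among all 222 coding genes under 300 nt. All 9 ribosomal protein genes of this length were lower at an unadjusted p under 0.05, with a median of -0.72. Beside the 5 called genes these were, named after their values were seen, Rpl38 (log2 fold change -0.72, edgeR adjusted p = 0.0538), Rps29 (-0.75, 0.0812), Rpl41 (-0.30, 0.314) and Rpl37 (-0.21, 0.366). Genes of 300 to 450 nt had a median of -0.13 (31 genes), those of 450 to 600 nt -0.05 (19 genes) and those of 600 to 1000 nt 0.01 (21 genes, with 0 lower and 1 higher at an unadjusted p under 0.05). The remaining 2 genes, of 1000 to 2000 nt, had a median of -0.08. The summed level of the 9 short genes was 1459, 1449 and 1495 CPM after dex and 1877, 2562 and 2237 CPM after saline. That of the 21 genes of 600 to 1000 nt was 14120, 14516 and 15592 CPM and 13905, 14875 and 15474 CPM. The first sums did not overlap and the second did. Together the ribosomal protein genes took 3.82% to 4.23% of counts after dex and 3.81% to 4.38% after saline.

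**Figure D4:**
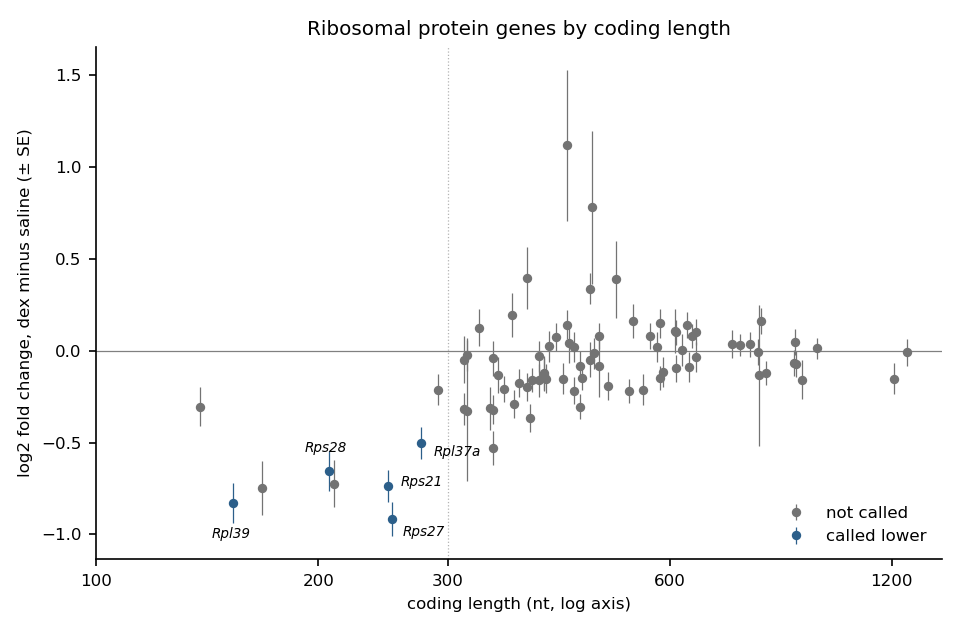
Log2 fold change (dex minus saline, bars ± SE) of the 82 ribosomal protein genes against coding length (nt, log axis), with called genes in blue and 300 nt marked by a dotted line. The 9 genes under 300 nt all lie below 0, with a median of -0.72, and the 21 genes of 600 to 1000 nt lie around 0.

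The same order of medians was seen outside the ribosome in a weaker form. Among 213 other protein-coding genes under 300 nt, the median was -0.07, with 33 lower and 2 higher at an unadjusted p under 0.05, against 5.93% and 5.71% of all genes. For 4383 genes of 2000 nt or more the median was 0.01, with 224 lower and 340 higher. With single libraries left out, the median of the 213 ranged from -0.11 to -0.04. Deviations from each gene's mean over the 6 libraries were also taken, on the log2(CPM + 0.5) scale. The median deviation of the 213 was -0.090, -0.031 and 0.020 after dex and -0.057, 0.11 and 0.067 after saline. The groups thus overlapped, as they did for the 4383 genes. Removing a smooth trend on spliced transcript length from every library, a step added after the data were seen, changed the median of the 9 short ribosomal protein genes to -0.58 and that of the 213 others to -0.02. The medians of the 9 ranged from -0.83 to -0.53 when single libraries were left out. Removing a trend on exon length instead left these medians at -0.76 and -0.08, so the 2 corrections moved them in opposite directions. Of 76 nuclear-encoded oxidative phosphorylation genes, 2 were called lower and 0 higher, and the median was -0.05. At an unadjusted p under 0.05, 13 were lower and 4 higher, against 5.93% and 5.71% of all genes. Cox6c was at 166, 175 and 190 CPM after dex and 220, 261 and 244 CPM after saline (log2 fold change -0.45, edgeR adjusted p = 0.0435). Ndufc1 was at 36.2, 33 and 36.7 CPM and 46.5, 50.5 and 53.4 CPM (log2 fold change -0.51, edgeR adjusted p = 0.0435). Omission of single libraries removed the call of Cox6c in 5 fits and of Ndufc1 in 4 (adjusted p up to 0.235 and 0.261, in both cases without dex replicate 2). The call of Ndufc1 was also lost with the transcript length trend removed (edgeR adjusted p = 0.124). The mitochondrially encoded genes were not called in edgeR (0 of 11 tested, 0 at an unadjusted p under 0.05) and took 0.777% to 1.29% of counts after dex and 0.874% to 1.04% after saline, with dex library 1 the highest.

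Usmg5 fell by 0.68 and Snrpe by 0.57 on the log2 scale (edgeR adjusted p = 0.0233 and 0.015). Usmg5 lost its call without dex replicate 3 or saline replicates 2 or 3, and Snrpe without dex replicate 2 or saline replicate 3 (adjusted p up to 0.155 and 0.106). With the transcript length trend removed, Usmg5 was not called (edgeR adjusted p = 0.100). Prdx1 and Eif1 fell by less. Prdx1, a peroxide-reducing enzyme, was at 401 to 462 CPM after dex and 550 to 579 CPM after saline (log2 fold change -0.40, edgeR adjusted p = 0.0406). Eif1, which helps the ribosome choose the start codon, was at 128 to 136 CPM and 165 to 174 CPM (log2 fold change -0.34, edgeR adjusted p = 0.0495). Omission of single libraries removed the call of Prdx1 in 4 fits and of Eif1 in 6, with adjusted p up to 0.228 and 0.345. Of 40 translation factors, Eif1 was the only call, and the median was -0.03. At an unadjusted p under 0.05, 7 were lower and 0 higher, against 5.93% and 5.71% of all genes. Pabpc1, the poly-A binding protein, was at 2752, 2430 and 2668 CPM after dex and 3242, 3199 and 3106 CPM after saline (log2 fold change -0.28, edgeR adjusted p = 0.138). Of 30 ribosome assembly factors edgeR called 0, with 4 at an unadjusted p under 0.05, against 11.6% of all genes.

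The pseudogenes Gm1821, Gm15920 and Gm7993 fell by 0.96, 0.91 and 0.43 on the log2 scale (edgeR adjusted p = 0.00306, 0.00295 and 0.038), and Gm47283, annotated on the Y chromosome, fell by 0.86 (0.0498). Their reads may belong to parent or duplicate genes, so their values are uncertain. The calls of Gm7993 and Gm47283 were lost in 3 and 4 omissions, with adjusted p up to 0.172 and 0.271, in both cases without dex replicates 2 or 3 or saline replicate 3.

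No meiotic gene on the lists was called in the main edgeR fit. Of 12 meiotic entry genes, 15 synaptonemal complex, HORMA domain and cohesin genes and 28 recombination genes, edgeR called 0. An unadjusted p under 0.05 was found for 2, 4 and 7 of them, against 11.6% of all genes. The medians were 0.03, -0.03 and 0.04. Stra8, which is induced by retinoic acid at meiotic entry, varied within groups at 17.6, 15 and 36.9 CPM after dex and 13.2, 24.9 and 30 CPM after saline (log2 fold change 0.03, SE 0.32, edgeR adjusted p = 0.98). Gm4969, the locus of the STRA8 partner MEIOSIN, was at 446, 442 and 510 CPM and 298, 399 and 386 CPM (log2 fold change 0.37, SE 0.10, edgeR adjusted p = 0.218). Its dex libraries all lay above saline. Sycp1, of the transverse filament of the synaptonemal complex, was at 2232, 2153 and 2172 CPM and 2690, 2385 and 2575 CPM (log2 fold change -0.22, edgeR adjusted p = 0.232). Hormad1, a protein of the chromosome axis, was at 538, 524 and 535 CPM and 635, 574 and 686 CPM (log2 fold change -0.24, edgeR adjusted p = 0.238). Both were lower in every dex library and neither was called. Sycp3 was at 458 to 505 CPM and 455 to 586 CPM (log2 fold change -0.09, edgeR adjusted p = 0.728).

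Among recombination genes with an unadjusted p under 0.05, 5 were higher and 2 lower, against 5.71% and 5.93% of all genes. Msh5, which stabilises crossover intermediates, was at 177, 185 and 199 CPM after dex and 113, 145 and 153 CPM after saline (log2 fold change 0.45, SE 0.10, edgeR adjusted p = 0.122). Prdm9, which sets the sites of meiotic breaks, was at 283 to 313 CPM and 206 to 269 CPM (log2 fold change 0.26, edgeR adjusted p = 0.325). The recombinase gene Dmc1 was at 251 to 262 CPM and 189 to 245 CPM (log2 fold change 0.20, edgeR adjusted p = 0.426), and Spo11, which makes the breaks, was at 150 to 178 CPM and 141 to 160 CPM (log2 fold change 0.07, edgeR adjusted p = 0.773). In each of the first 3, saline library 1 was the lowest of the 6.

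Germ cell RNA-binding, piRNA and Tudor domain genes and oocyte transcription factors had medians below that of all genes, at -0.11 (27 genes) and -0.13 (15 genes, -0.23 without dex replicate 1). In the first list 0 were called by edgeR, 4 were lower and 0 higher at an unadjusted p under 0.05, and 8 had a log2 fold change above 0. In the second, 0 were called, 4 were lower and 0 higher, and 4 were above 0. Over all genes, 5.93% were lower and 5.71% higher at an unadjusted p under 0.05, and 53% were above 0. Dazl, an RNA-binding protein needed for germ cell development, was at 1024, 954 and 991 CPM after dex and 1072, 1036 and 1118 CPM after saline (log2 fold change -0.12, SE 0.06, edgeR adjusted p = 0.491). Ddx4 was at 551 to 602 CPM and 586 to 617 CPM (log2 fold change -0.07, edgeR adjusted p = 0.689). Sohlh2, a transcription factor of the primordial follicle, was at 105, 101 and 107 CPM and 129, 118 and 117 CPM (log2 fold change -0.22, edgeR adjusted p = 0.242). Of 9 tested DNA methylation enzymes, 0 were called by edgeR and 0 had an unadjusted p under 0.05, against 11.6% of all genes.

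**Figure D5:**
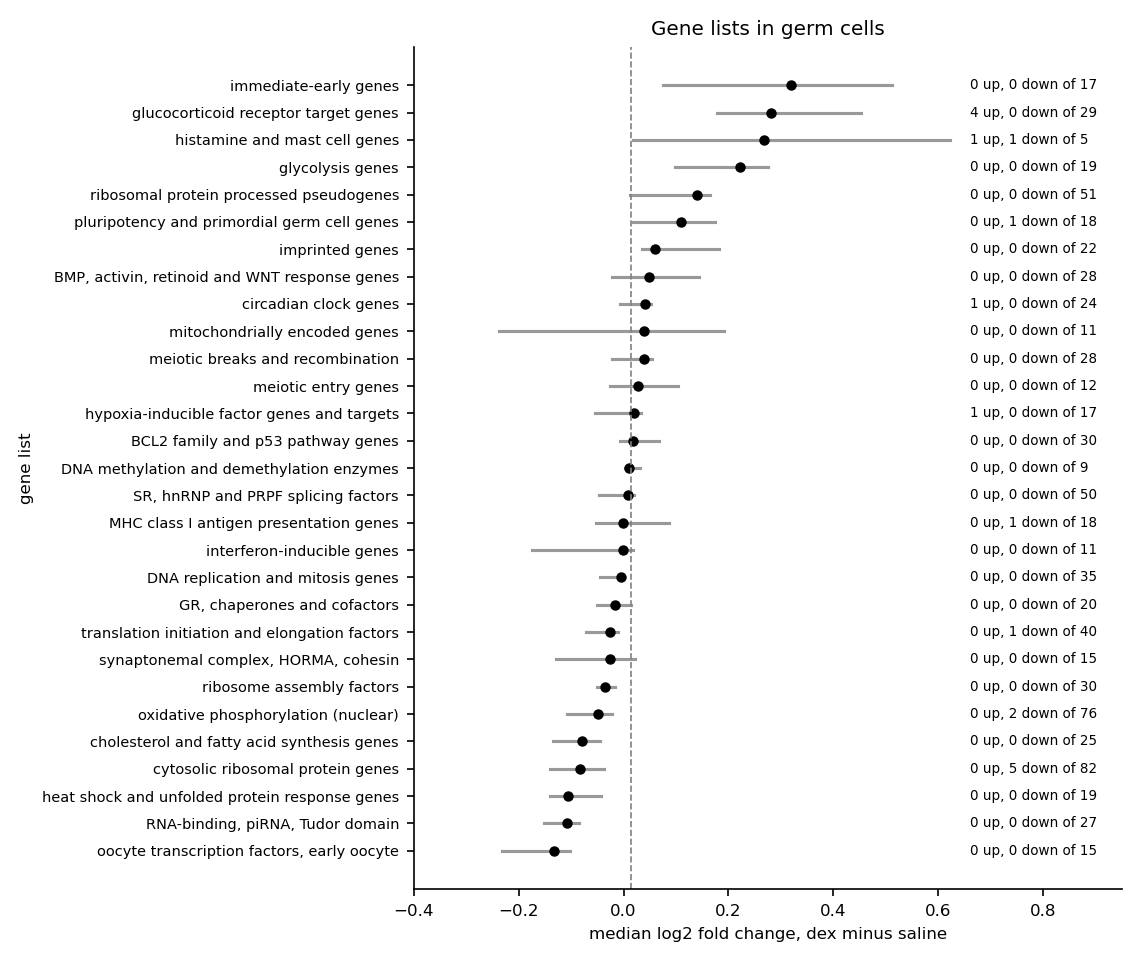
Median log2 fold change (dex minus saline) of each gene list in germ cells (points), with the range when single libraries are left out (grey lines) and the median of all tested genes (dashed line). Numbers at the right give genes called higher and lower of those tested, and GR targets, with a median of 0.28, held 4 of the 15 genes called higher.

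Other pathways had few or no calls. Immediate-early genes had the highest median, 0.32 (17 tested), with 15 above 0 and 0 called by edgeR. At an unadjusted p under 0.05, 2 were higher and 0 lower, against 5.71% and 5.93% of all genes. The median was 0.07 without dex replicate 2. Jund, an AP-1 subunit, was at 27.3, 32 and 42.2 CPM after dex and 23.7, 28.4 and 26.1 CPM after saline (log2 fold change 0.38, edgeR adjusted p = 0.355). Glycolysis genes had a median of 0.22 (0.097 without dex replicate 2), with 16 of 19 above 0, 1 higher and 1 lower at an unadjusted p under 0.05, and 0 called. Ldha was at 12.9, 21.6 and 18.3 CPM and 12, 11.5 and 15.2 CPM (log2 fold change 0.45, edgeR adjusted p = 0.389). Dex library 2, which held the most pregranulosa and stromal marker RNA, was the highest of the 6 for Ldha, and somatic Ldha averaged 425 and 389 CPM. The pregranulosa markers themselves had a median of 0.33 over 13 genes, which was -0.01 without dex replicate 2. The part of somatic RNA in these medians was not tested.

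Splicing factors (50 tested), DNA replication and mitosis genes (35), BCL2 family and p53 pathway genes (30), BMP, activin, retinoid and WNT response genes (28), cholesterol and fatty acid synthesis genes (25), imprinted genes (22) and heat shock and unfolded protein response genes (19) held 0 edgeR calls. At an unadjusted p under 0.05 they had 8, 7, 3, 2, 3, 5 and 6 genes, against 11.6% of all genes. Their medians lay between -0.11 and 0.06. Among splicing factors, Snrnp70, the U1 particle protein, was at 919, 748 and 757 CPM after dex and 498, 725 and 579 CPM after saline (log2 fold change 0.43, SE 0.12, edgeR adjusted p = 0.23), and its dex libraries all lay above saline. Among p53 pathway genes Cdkn1a, described with the GR targets, had the smallest p. Ccnb2, a mitotic cyclin, was at 97 to 106 CPM and 119 to 129 CPM (log2 fold change -0.27, edgeR adjusted p = 0.153). H19, an imprinted RNA that is abundant in the soma, was at 68.8, 314 and 216 CPM after dex and 52.5, 98.8 and 103 CPM after saline (log2 fold change 1.24, edgeR adjusted p = 0.282, and 0.0466 with the somatic covariate), and dex libraries 2 and 3 were the highest for H19 as they were for the pregranulosa sum. The part of somatic RNA in this difference was not tested.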

How the data were processed

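RNA was measured in sorted E15.5 ovarian germ cells, 3 libraries of dexamethasone and 3 of saline treated animals, labelled as biological replicates. Replicate pools are the unit of every test. The authors aligned reads to mm10 with HISAT2 2.0.5 and deposited raw gene counts from featureCounts 1.5.0-p3, with the counting strand and the treatment of multiply mapped reads not given in the sources used here. The authors also deposited FPKM values per library, which were not tested. The authors' DESeq2 comparison tables, with their log2 fold changes and p-values, were not used. Annotation coordinates were on GRCm38.

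From the counts, genes were filtered by filterByExpr, scaled by TMM and tested with edgeR 4.0.16 (quasi-likelihood, dex against saline, 2-sided) in R 4.3.3, with Benjamini-Hochberg adjustment and a threshold of 0.05. CPM used TMM-scaled library sizes. Standard errors were taken from the fold change and F statistic. On data simulated for this comparison over 16507 genes, 46.3% of 1.5-fold, 64.6% of 2-fold and 93.7% of 4-fold changes were called, with 5 false calls. The simulated scatter followed the level of a gene alone, and libraries differed only in depth and the set changes. Somatic RNA and other shifts between libraries were left out, so the real shares may differ. Genes were named if called, if fixed as receptor, target, clock or germ cell genes, or if leading a list. Members and lists were chosen with earlier results of these data known. Coding length, biotype and chromosome classes were set after values were seen. Alternatives were other scaling, filters and fits, length correction, a somatic covariate, DESeq2 1.42.0, a replicate block and omission of each library. Exact intervals and floors cover counting error only.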

Additional observations from a re-analysis of the deposited data

How the results depend on the processing

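All 35 called genes kept their direction under every alternative run. The number called was 35 (15 higher, 20 lower). It was 420 (248 and 172) with no low-count filter, 59 (23 and 36) with an exon length trend removed, 113 (58 and 55) with that and a replicate block, and 158 (72 and 86) in DESeq2. It ranged from 17 to 81 with single libraries left out, from 9 to 60 higher and from 8 to 30 lower. Genes called higher numbered 24 with robust estimation, 27 with the replicate block (49 in all), 23 with a transcript length trend removed and 23 with the somatic covariate. Among single genes named here, 8 that the main fit did not call were called in DESeq2, and 18 were called without the low-count filter. A gene described as not called is thus not called in the main fit only. The transcript length trend and the bias-adjusted fit were chosen after seeing the data. The cause of these moves was not tested. Deviations of same-numbered dex and saline libraries correlated at 0.166, 0.020 and 0.061, and those of differently numbered libraries at -0.114 to 0.067. The numbers were not taken as pairs in the main fit, and these values do not settle whether they mark pairs. Under the replicate block, 29 of the 35 calls were kept. Log2 fold changes near 0 changed sign with single libraries left out, from -0.054 without dex replicate 2 to 0.012 without saline replicate 1 for Nr3c1, from -0.061 to 0.40 for Pou5f1, from -0.020 to 0.12 for Spo11, from -0.49 to 0.29 for Stra8, from -0.17 to 0.021 for Sycp3 and from -0.61 to 0.62 for Tpsb2. Stra8 was at -0.017 with the replicate block and length trend removed together.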

Other observations

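The 2049 tested lincRNA, antisense, processed transcript, TEC and bidirectional promoter genes had a median log2 fold change of 0.15 (0.08 to 0.21 with single libraries left out), and 66.8% were above 0. For 13863 protein-coding genes the median was 0.00 and 50.5% were above 0. The gap between the classes differed by level. Median log2 fold changes of non-coding and coding genes were 0.22 and 0.16 below 1 CPM, 0.13 and 0.15 at 1 to 2 CPM, and 0.15 and 0.13 at 2 to 5 CPM. They were 0.15 and 0.03 at 5 to 20 CPM (315 and 2855 genes) and 0.10 and -0.02 at 20 CPM or more (75 and 7384 genes). By library, the median deviation of non-coding genes from each gene's mean over the 6 libraries, on the log2(CPM + 0.5) scale, was 0.15, 0.068 and -0.025 after dex and -0.051, -0.0017 and -0.10 after saline, so the groups overlapped. These classes were set after values were seen and no test was made. Only Gm27252 and Gm36634 were called among the non-coding genes.

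On the X chromosome, 77 of 670 tested genes were lower and 29 higher at an unadjusted p under 0.05, with a median of -0.04. On chromosome 7, 53 of 1341 were lower and 108 higher, with a median of 0.07. Over all genes, 5.93% were lower and 5.71% higher, with a median of 0.01. Of 51 tested ribosomal protein processed pseudogenes, edgeR called 0, with 7 lower and 2 higher at an unadjusted p under 0.05 and a median of 0.14, which was 0.013 when dex library 1 was omitted, 0.063 when dex library 2 was, and 0.071 when saline library 3 was.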
